A study of Mus musculus with 9 samples.

Results

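Genes of T cell identity and T cell receptor signalling were followed in whole lungs of 9 mice. The set holds 32 of the 16165 genes in the deposited expression table, chosen by gene name: the chains of the T cell receptor complex with the coreceptors, the proximal signalling proteins, the costimulatory and adhesion receptors, transcription factors of T cell lineages and subsets, and cytokine receptors. All 32 were found in the table. They are separate from the T cell receptor alpha and beta chain segments, which are not analysed here.

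Total lung RNA was sequenced from 3 mice in each of 3 groups, with 1 library per mouse. Control mice, labelled only as controls, received vehicle. TGFα mice received doxycycline (Dox) for 6 weeks and, in the last 3 weeks, either vehicle or pirfenidone, an antifibrotic drug. TGFα (transforming growth factor alpha) activates the EGF receptor, and its overexpression in mouse lung is used to model fibrosis. The labels give no strain, age, sex, promoter or transgene construct. Dox is not named for the control mice, so the TGFα genotype and Dox cannot be told apart, and no control mice received pirfenidone.

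A T cell recognises peptide bound to an MHC molecule through its clonal receptor, which cannot signal alone and depends on the CD3 gamma, delta and epsilon chains and the zeta chain. On engagement the kinase Lck, carried by the coreceptors CD4 and CD8, phosphorylates these chains, the kinase ZAP-70 docks on them and the adaptor LAT then assembles the next signalling complex. Costimulatory receptors such as CD28 and ICOS strengthen the signal and CTLA-4 restrains it. In the lung, T cells are found in the blood of the capillaries, in the airway wall and in the interstitium.

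Values are the deposited RPKM (reads scaled to gene length and to library depth), which allow levels of different genes to be compared. A difference is on the log2(RPKM + 1) scale, which understates the fold of low genes, and folds are ratios of mean RPKM. Adjusted p values are those of limma across the 13849 genes that had more than 1 RPKM in at least 3 libraries, and a gene was called when its adjusted p was under 0.05. Of the 32 members 30 were tested. Themis and Foxp3 did not reach that level. Ubash3a, Icos, Ctla4, Il2ra, Cd40lg and Tbx21, 6 members in all, reached it only with the help of control libraries, so counts of called members are given beside counts over all 32. Nothing in the labels says more of how the mice were kept or the libraries batched, so p values measure the spread between these libraries.

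The libraries held 11428709 to 18874158 reads. All expressed the lung markers strongly, with Sftpc (surfactant protein C of alveolar type 2 cells) between 12880.5 and 21973 RPKM. Control library 3 stood apart in leukocyte genes. Its summed RPKM over 18 myeloid genes was 6942, against 2421 and 2576 in the other controls. Skeletal muscle genes, which mark tissue from outside the lung, summed to 1144 and 429 RPKM in TGFα vehicle libraries 1 and 2 and 326 and 1758 RPKM in pirfenidone libraries 1 and 2. In the other 5 libraries they summed to at most 36.2 RPKM. Results that rest on control library 3 are therefore also given without it.

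Several members are neighbours in the genome (RefSeq positions on GRCm38). Cd3g, Cd3d and Cd3e lie together on chromosome 9, where Cd3g and Cd3d, on opposite strands, lie 1337 bases apart and Cd3d ends 11682 bases from Cd3e. Cd28, Ctla4 and Icos lie in a row on chromosome 1, Cd8b1 and Cd8a 35934 bases apart on chromosome 6, and Cd5 and Cd6 50312 bases apart on chromosome 19. RefSeq start windows, from 250 bases before to 50 bases after a gene's start, were at hand for 21 of the 32 members in 28 windows. The windows of the CD3 cluster, of Lck at its distal start and of Il7r are shown because these genes were lower together in TGFα lungs on vehicle. Capitals mark matches on either strand to letters of motifs bound by T cell factors: TGTGGT for RUNX, AGGAAG for ETS, CTTTGA for TCF/LEF, AGATAA for GATA and CAGCTG for the E box.
Cd3g start window, GRCm38 chr9:44980382-44980681, minus strand: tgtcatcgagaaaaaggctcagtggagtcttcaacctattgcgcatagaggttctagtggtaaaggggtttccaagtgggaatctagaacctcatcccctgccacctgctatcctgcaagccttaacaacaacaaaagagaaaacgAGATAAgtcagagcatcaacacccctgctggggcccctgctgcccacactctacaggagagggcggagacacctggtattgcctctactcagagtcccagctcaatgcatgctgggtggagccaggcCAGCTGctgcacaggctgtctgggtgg
Cd3d start window, GRCm38 chr9:44981536-44981835, plus strand: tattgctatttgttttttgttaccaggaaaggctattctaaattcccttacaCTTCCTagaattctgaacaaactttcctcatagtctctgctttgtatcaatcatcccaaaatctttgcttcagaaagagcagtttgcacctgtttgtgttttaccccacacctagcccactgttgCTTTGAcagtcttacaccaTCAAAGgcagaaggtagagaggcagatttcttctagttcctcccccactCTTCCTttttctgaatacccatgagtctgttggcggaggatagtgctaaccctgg
Cd3e start window, GRCm38 chr9:45009562-45009861, minus strand: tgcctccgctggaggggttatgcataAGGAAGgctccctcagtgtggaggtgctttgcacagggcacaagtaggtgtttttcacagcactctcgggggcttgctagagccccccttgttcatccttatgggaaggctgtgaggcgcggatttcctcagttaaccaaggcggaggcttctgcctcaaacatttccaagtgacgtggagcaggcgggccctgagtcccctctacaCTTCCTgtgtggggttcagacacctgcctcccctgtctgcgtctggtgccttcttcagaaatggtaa
Lck distal start window, GRCm38 chr4:129573592-129573891, minus strand: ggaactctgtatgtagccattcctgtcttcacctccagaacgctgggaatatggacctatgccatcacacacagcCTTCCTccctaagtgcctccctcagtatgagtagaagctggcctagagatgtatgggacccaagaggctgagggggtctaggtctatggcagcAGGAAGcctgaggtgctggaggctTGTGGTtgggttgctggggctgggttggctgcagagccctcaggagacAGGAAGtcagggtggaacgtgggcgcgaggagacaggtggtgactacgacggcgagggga
Il7r start window, GRCm38 chr15:9529827-9530126, minus strand: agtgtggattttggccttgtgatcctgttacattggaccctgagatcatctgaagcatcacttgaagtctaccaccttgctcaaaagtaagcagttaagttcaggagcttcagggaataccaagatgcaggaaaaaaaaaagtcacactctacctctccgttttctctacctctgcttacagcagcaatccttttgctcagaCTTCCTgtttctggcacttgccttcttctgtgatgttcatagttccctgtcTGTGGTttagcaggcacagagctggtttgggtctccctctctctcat
Cd3g held 1 GATA and 1 E box match, and Cd3d held 2 ETS matches and 2 TCF/LEF matches. Cd3e held 2 ETS matches, Lck 1 RUNX and 3 ETS matches, and Il7r 1 RUNX and 1 ETS match. Matches of different motifs did not overlap in these windows. Over the 28 member windows, 57.1% held the ETS letters, against 35.4% of 32851 mouse windows of this length. The 32851 windows leave out 1 chromosome, which holds no member. RUNX letters were in 17.9% against 16.8%, TCF/LEF letters in 25% against 16%, GATA letters in 14.3% against 11.2% and E box letters in 21.4% against 16.3%. These are matches of letters and not measured binding sites.

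In TGFα lungs on vehicle the T cell genes were lower than in control lungs almost throughout. Of the 30 members tested 26 were called lower and 0 higher, while 11.2% of all genes tested were called lower and 12% higher. The 26 include Icos, Cd40lg and Tbx21, which were tested only with the help of control libraries, where they were high. Their calls therefore add no independent support. The mean of every one of the 32 members was lower. In 31 of the 32 all TGFα vehicle libraries lay below all control libraries, which held for 18.8% of all genes tested, with 25.4% lying above. Il2ra was the exception. Means on TGFα vehicle were 0.1003 to 0.771 of control, with a median of 0.398, and the median difference of the tested members was -0.94 against 0.04 over all genes. Whole lung RNA cannot tell fewer T cells from less of these RNAs in each cell. The number of called members was 15 without TGFα vehicle library 2 and 13 without TGFα vehicle library 3, each of which leaves that group with 2 libraries. In both of these fits 4.92% of all genes were called lower.

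**Figure D1:**
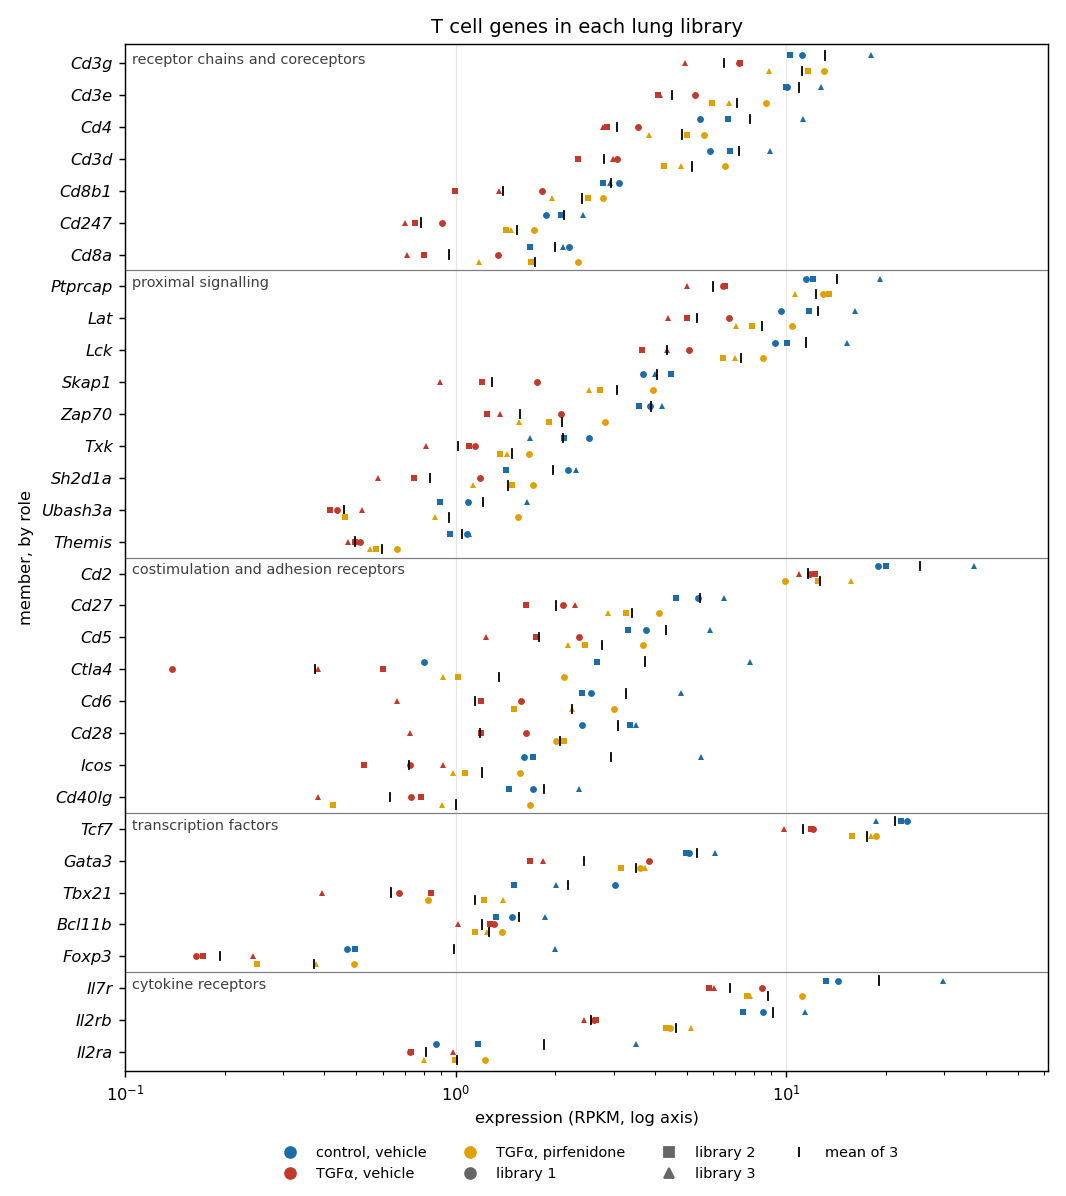
Expression of the 32 T cell genes in each library, grouped by role, on a log axis of RPKM; colours mark the groups, symbols the library number and black ticks the mean of 3. TGFα vehicle libraries lie left of the control libraries for 31 of the 32 genes, and control library 3 is the highest of all 9 libraries for 26 of 32.

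The signal-transducing chains of the receptor complex all fell. Control libraries held Cd3e at 10.02, 9.95 and 12.7 RPKM, TGFα vehicle libraries at 5.27, 4.09 and 4.13 and pirfenidone libraries at 8.65, 5.95 and 6.705. Cd3e encodes CD3 epsilon, and its TGFα vehicle mean was 0.413 of control (difference -1.11, SE 0.15, adjusted p = 0.00284). For Cd3d, RPKM values were 5.86, 6.75 and 8.93 in control, 3.07, 2.35 and 2.99 on TGFα vehicle and 6.51, 4.27 and 4.79 with pirfenidone. Cd3d, for CD3 delta, fell to 0.3901 of control (difference -1.09, SE 0.18, adjusted p = 0.00479). Cd3g stood at 11.1, 10.2 and 18.02 RPKM in control, 7.19, 7.24 and 4.92 on TGFα vehicle and 13.001, 11.6 and 8.86 with pirfenidone. For Cd3g, the CD3 gamma chain, the TGFα vehicle mean was 0.492 of control (difference -0.90, SE 0.23, adjusted p = 0.02401). The call of Cd3g was lost without TGFα vehicle library 2 or 3 (highest adjusted p = 0.0905), whereas those of Cd3e and Cd3d were kept whichever library was left out. RPKM of Cd247 were 1.88, 2.08 and 2.42 in control, 0.906, 0.751 and 0.703 on TGFα vehicle and 1.72, 1.41 and 1.47 with pirfenidone. Cd247 encodes the zeta chain, with the signalling motifs that ZAP-70 binds, and stood at 0.37001 of control on TGFα vehicle (difference -0.81, SE 0.11, adjusted p = 0.00316). In all 4 genes pirfenidone libraries lay above every TGFα vehicle library, an order found in 15.3% of all genes tested. Of the exon bases of Cd247 in GENCODE M21, 56.4% are shared with Pou2f1 on the other strand, and whether reads were counted by strand is not given in the sources used here.

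Both coreceptors were lower too. Levels of Cd4 were 5.48, 6.66 and 11.2 RPKM in control, 3.55, 2.87 and 2.79 on TGFα vehicle and 5.63, 4.99 and 3.84 with pirfenidone. Cd4, the coreceptor for MHC class II, which some macrophages and dendritic cells also express, fell to 0.395 of control (difference -1.06, SE 0.23, adjusted p = 0.0129). Cd8a measured 2.204, 1.67 and 2.11 RPKM in control libraries 1 to 3, 1.34, 0.802 and 0.711 on TGFα vehicle and 2.35, 1.69 and 1.18 with pirfenidone. Cd8a, the alpha chain of the coreceptor for MHC class I, fell to 0.476 of control (difference -0.63, SE 0.19, adjusted p = 0.0416). Control libraries held Cd8b1 at 3.11, 2.78 and 2.92 RPKM, TGFα vehicle libraries at 1.82, 0.995 and 1.35 and pirfenidone libraries at 2.78, 2.51 and 1.95. Cd8b1 encodes the CD8 beta chain and stood at 0.472 of control on TGFα vehicle (difference -0.74, SE 0.15, adjusted p = 0.0109). Calls of Cd4 were lost without TGFα vehicle library 2 or 3 (highest adjusted p = 0.0542). The call of Cd8a was lost without any one of the control libraries, without TGFα vehicle library 2 or 3 and without pirfenidone library 2 (highest adjusted p = 0.144), and that of Cd8b1 was kept in every such fit. The ratio of Cd4 to Cd8a RPKM was 2.48, 3.98 and 5.3 in the control libraries, 2.66, 3.58 and 3.92 on TGFα vehicle and 2.396, 2.95 and 3.27 with pirfenidone. The 3 groups overlapped in this ratio.

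All 8 proximal signalling genes tested were lower on TGFα vehicle, and 7 were called, beside 11.2% of all genes tested called lower. For Lck, RPKM values were 9.21, 10.03 and 15.2 in control, 5.06, 3.66 and 4.36 on TGFα vehicle and 8.49, 6.43 and 6.99 with pirfenidone. Lck, the kinase that starts signalling, fell to 0.379 of control (difference -1.20, SE 0.19, adjusted p = 0.00422). Zap70 stood at 3.87, 3.59 and 4.19 RPKM in control, 2.08, 1.24 and 1.36 on TGFα vehicle and 2.82, 1.92 and 1.55 with pirfenidone. Zap70, the kinase recruited to the phosphorylated chains, fell to 0.402 of control (difference -0.94, SE 0.18, adjusted p = 0.00796). RPKM of Lat were 9.64, 11.7 and 16.1 in control, 6.697, 5.01 and 4.38 on TGFα vehicle and 10.4, 7.85 and 7.06 with pirfenidone. Lat, the membrane adaptor phosphorylated by ZAP-70, stood at 0.4296 of control on TGFα vehicle (difference -1.07, SE 0.21, adjusted p = 0.00963). The 3 control libraries of each of these kinases and of Lat lay above all TGFα vehicle libraries, an order found in 18.8% of all genes tested. Their calls were kept whichever library was left out.

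Among the other signalling genes, Skap1 measured 3.69, 4.49 and 3.99 RPKM in control, 1.76, 1.203 and 0.895 on TGFα vehicle and 3.96, 2.73 and 2.52 with pirfenidone. Skap1 encodes an adaptor that links the receptor to integrin adhesion, and it fell to 0.317 of control (difference -1.16, SE 0.18, adjusted p = 0.00391). Levels of Ptprcap were 11.5, 11.99 and 19.2 RPKM in control, 6.41, 6.52 and 5.01 on TGFα vehicle and 12.9, 13.4 and 10.6 with pirfenidone. Ptprcap, for a protein associated with the phosphatase CD45, fell to 0.4204 of control (difference -1.10, SE 0.19, adjusted p = 0.00618). Its gene shares 76% of its exon bases with Rps6kb2 on the other strand and 26.8% with Coro1b, so reads of these genes may be mixed in its values. Txk measured 2.53, 2.12 and 1.68 RPKM in control libraries 1 to 3, 1.14, 1.097 and 0.811 on TGFα vehicle and 1.67, 1.36 and 1.43 with pirfenidone. Txk, a kinase of the TEC family, fell to 0.482 of control (difference -0.62, SE 0.14, adjusted p = 0.0139), a call lost without control library 1 or 2 or TGFα vehicle library 3 (highest adjusted p = 0.0629). Control libraries held Sh2d1a at 2.18, 1.42 and 2.31 RPKM, TGFα vehicle libraries at 1.18, 0.748 and 0.582 and pirfenidone libraries at 1.71, 1.48 and 1.12. Sh2d1a encodes SAP, the adaptor of SLAM family receptors. It fell to 0.425 of control (difference -0.69, SE 0.18, adjusted p = 0.0243), on 9 to 32 reads per library, and its call was lost without control library 1 or 3 or TGFα vehicle library 2 or 3 (highest adjusted p = 0.0941). Sh2d1a shares 26.6% of its exon bases with Tenm1 on the other strand.

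The remaining signalling members were not called or not tested. For Ubash3a, RPKM values were 1.09, 0.897 and 1.64 in control, 0.436, 0.415 and 0.5203 on TGFα vehicle and 1.54, 0.461 and 0.863 with pirfenidone. Ubash3a encodes a phosphatase-like suppressor of receptor signalling. Its TGFα vehicle mean was 0.378 of control with no overlap between these groups (difference -0.59, SE 0.21, adjusted p = 0.0741). Themis stood at 1.08, 0.9602 and 1.09 RPKM in control, 0.514, 0.495 and 0.472 on TGFα vehicle and 0.665, 0.574 and 0.549 with pirfenidone. Themis, known from thymocyte selection, stood at 0.473 of control on TGFα vehicle, again with no overlap. With no filter on low values it was called lower (difference -0.45, adjusted p = 0.00473).

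Costimulatory and adhesion receptors were lower on TGFα vehicle, and 7 of the 8 were called, beside 11.2% of all genes tested called lower. Icos and Cd40lg among the 7 were tested only with the help of control libraries, so their calls add no independent support. RPKM of Cd2 were 18.9, 20.1 and 37.03 in control, 11.8, 12.2 and 10.9 on TGFα vehicle and 9.87, 12.4 and 15.7 with pirfenidone. Cd2, an adhesion receptor of T and NK cells and the highest member in control lungs, fell to 0.4596 of control (difference -0.99, SE 0.25, adjusted p = 0.0219). Levels of Cd27 were 5.396, 4.63 and 6.45 RPKM in control, 2.11, 1.63 and 2.29 on TGFα vehicle and 4.11, 3.26 and 2.87 with pirfenidone. Cd27 is a receptor of the TNF family that supports T cell survival, and it fell to 0.366 of control (difference -1.11, SE 0.15, adjusted p = 0.00283). Cd28 measured 2.41, 3.37 and 3.504 RPKM in control libraries 1 to 3, 1.63, 1.19 and 0.724 on TGFα vehicle and 2.01, 2.12 and 2.08 with pirfenidone. Cd28, the main costimulatory receptor, fell to 0.382 of control (difference -0.92, SE 0.17, adjusted p = 0.00796). Calls of Cd27 and Cd28 were kept whichever library was left out, and that of Cd2 was lost without TGFα vehicle library 2 or 3 (highest adjusted p = 0.0795).

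Cd5 and Cd6 are related scavenger-type receptors that tune the strength of receptor signals. Control libraries held Cd5 at 3.77, 3.31 and 5.85 RPKM, TGFα vehicle libraries at 2.36, 1.75 and 1.23 and pirfenidone libraries at 3.68, 2.45 and 2.19. Cd5 fell to 0.413 of control (difference -0.92, SE 0.23, adjusted p = 0.0219). For Cd6, RPKM values were 2.57, 2.41 and 4.81 in control, 1.57, 1.19 and 0.664 on TGFα vehicle and 2.999, 1.496 and 2.24 with pirfenidone. Cd6 fell to 0.3504 of control (difference -0.97, SE 0.26, adjusted p = 0.03003). The call of Cd5 was lost without control library 1 or TGFα vehicle library 2 or 3 (highest adjusted p = 0.0855), and that of Cd6 without control library 1 or 3 or TGFα vehicle library 2 or 3 (highest adjusted p = 0.111).

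Icos, Cd40lg and Ctla4, which activated T cells carry, had few reads on TGFα vehicle. The SE of Icos and of Ctla4 was wider than that of the other costimulatory and adhesion receptors. Icos stood at 1.61, 1.71 and 5.52 RPKM in control, 0.725, 0.527 and 0.912 on TGFα vehicle and 1.56, 1.07 and 0.979 with pirfenidone. Icos fell to 0.245 of control (difference -1.06, SE 0.32, adjusted p = 0.0448), with control library 3 far above the other controls. Its call was lost without control library 2, any one of the TGFα vehicle libraries, or pirfenidone library 1 or 2 (highest adjusted p = 0.141), and with only the 6 libraries compared (adjusted p = 0.0728). RPKM of Cd40lg were 1.71, 1.45 and 2.36 in control, 0.7298, 0.784 and 0.381 on TGFα vehicle and 1.68, 0.424 and 0.906 with pirfenidone. Cd40lg, the ligand through which helper T cells stimulate B cells and macrophages, fell to 0.343 of control (difference -0.80, SE 0.24, adjusted p = 0.0414). That call rested on 7 to 50 reads per library and was lost without any one of the control or TGFα vehicle libraries (highest adjusted p = 0.143). It was also lost with a pseudocount of 0.1 (adjusted p = 0.0504). Levels of Ctla4 were 0.7999, 2.67 and 7.73 RPKM in control, 0.139, 0.602 and 0.384 on TGFα vehicle and 2.13, 1.02 and 0.916 with pirfenidone. Ctla4, the inhibitory counterpart of CD28, had a TGFα vehicle mean 0.1003 of control, the lowest ratio of any member, but was not called (difference -1.51, SE 0.49, adjusted p = 0.0566). Its reads in the controls numbered 26, 80 and 253.

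All 4 transcription factors tested were lower on TGFα vehicle, and 3 were called, beside 11.2% of all genes tested called lower. Tbx21 among the 3 was tested only with the help of control libraries, so its call adds no independent support. Tcf7 measured 23.1, 22.2 and 18.7 RPKM in control libraries 1 to 3, 11.99, 11.9 and 9.82 on TGFα vehicle and 18.6, 15.8 and 18.1 with pirfenidone. Tcf7 encodes TCF-1, a factor of naive and memory T cells. It fell to 0.526 of control (difference -0.87, SE 0.11, adjusted p = 0.00255), and it was among the few members highest in control library 1. Control libraries held Gata3 at 5.09, 4.96 and 6.07 RPKM, TGFα vehicle libraries at 3.84, 1.68 and 1.83 and pirfenidone libraries at 3.59, 3.15 and 3.74. Gata3, the factor of type 2 helper T cells and innate lymphoid cells, fell to 0.456 of control (difference -0.94, SE 0.21, adjusted p = 0.0158), with TGFα vehicle library 1 above the other libraries of its group. For Tbx21, RPKM values were 3.03, 1.49 and 2.01 in control, 0.673, 0.83995 and 0.394 on TGFα vehicle and 0.823, 1.22 and 1.39 with pirfenidone. Tbx21 encodes T-bet, the factor of type 1 helper T cells and also of NK cells, and fell to 0.292 of control (difference -0.94, SE 0.20, adjusted p = 0.0127). The call of Gata3 was lost without TGFα vehicle library 2 or 3 (highest adjusted p = 0.0669) and that of Tbx21 without TGFα vehicle library 3 (adjusted p = 0.0561).

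Bcl11b and Foxp3 complete the transcription factors. Bcl11b stood at 1.48, 1.32 and 1.86 RPKM in control, 1.31, 1.27 and 1.02 on TGFα vehicle and 1.38, 1.15 and 1.24 with pirfenidone. Bcl11b, a factor that commits precursors to the T cell lineage, differed least of all 32 members. Its TGFα vehicle mean was 0.771 of control (difference -0.21, SE 0.12, adjusted p = 0.229), although its libraries did not overlap between these groups. RPKM of Foxp3 were 0.469, 0.494 and 2.001 in control, 0.164, 0.172 and 0.243 on TGFα vehicle and 0.4901, 0.2503 and 0.378 with pirfenidone. Foxp3, the factor of regulatory T cells, was not tested. Its reads numbered 31, 30 and 133 in control libraries, 12, 11 and 18 on TGFα vehicle and 22, 13 and 21 with pirfenidone. The 95% counting interval of control library 1 was 0.319 to 0.666 RPKM and that of TGFα vehicle library 3 was 0.144 to 0.384 RPKM, which covers counting error only. With no filter on low values Foxp3 was not called lower (difference -0.65, adjusted p = 0.0919). The Foxp3 gene shares 18.6% of its exon bases with Flicr on the same strand. On the other strand it shares 12.9% with Ccdc22, 8.15% with Gm36995 and 5.81% with Ppp1r3f. Reads of these genes may be mixed in its values.

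The cytokine receptors included the member with the smallest p. Levels of Il2rb were 8.51, 7.38 and 11.4 RPKM in control, 2.61, 2.66 and 2.44 on TGFα vehicle and 4.45, 4.32 and 5.15 with pirfenidone. Il2rb encodes the beta chain shared by the IL-2 and IL-15 receptors and is also high in NK cells. It fell to 0.283 of control (difference -1.48, SE 0.14, adjusted p = 0.00106), a call kept whichever library was left out. Il7r measured 14.3, 13.1 and 29.8 RPKM in control libraries 1 to 3, 8.44, 5.84 and 6.02 on TGFα vehicle and 11.1, 7.59 and 7.74 with pirfenidone. Il7r, the receptor of the survival factor IL-7, which innate lymphoid cells also carry, fell to 0.354 of control (difference -1.29, SE 0.29, adjusted p = 0.0159). Without TGFα vehicle library 2 or 3 the call of Il7r was lost (highest adjusted p = 0.0644). Control libraries held Il2ra at 0.873, 1.17 and 3.51 RPKM, TGFα vehicle libraries at 0.727, 0.733 and 0.981 and pirfenidone libraries at 1.23, 0.991 and 0.799. Il2ra encodes CD25, the high-affinity chain of activated and regulatory T cells. It was not called (difference -0.54, SE 0.29, adjusted p = 0.208), and control library 1 lay within the range of the TGFα vehicle libraries.

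Control library 3 held more of most members than the other controls. The ratio of control library 3 to the mean of control libraries 1 and 2 was 4.45 for Ctla4, 4.16 for Foxp3, 3.44 for Il2ra, 3.33 for Icos and 2.17 for Il7r. For Cd4 the ratio was 1.85, but for Cd8a 1.09 and for Cd8b1 0.992. Tcf7 and Txk were lower in that library than in the other controls, with ratios of 0.824 and 0.7205. Over the 32 members the median ratio was 1.42, against 0.984 over all genes tested, and 14 members had a ratio above 1.5, as did 8.57% of all genes tested. Without this library 22 of the 28 members tested were called lower on TGFα vehicle, beside 12.5% of all genes. The myeloid sum given above was highest in control library 3. The part of its myeloid RNA in these ratios was not tested.

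**Figure D2:**
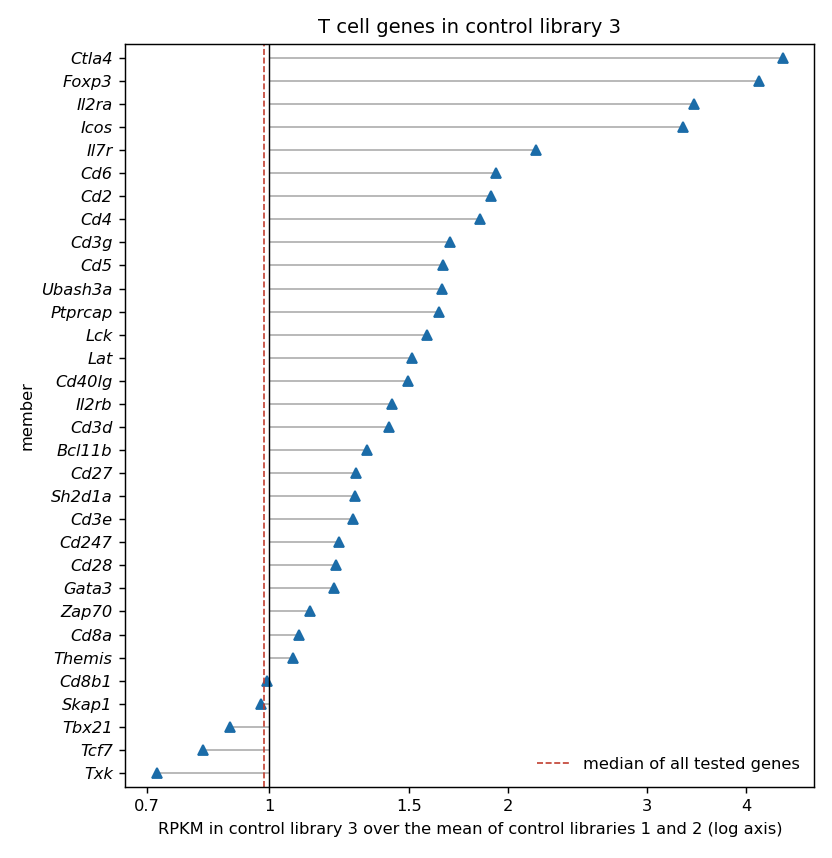
Ratio of RPKM in control library 3 to the mean of control libraries 1 and 2 for each of the 32 T cell genes, on a log axis, with the dashed line at the median of all genes tested (0.984). Ctla4, Foxp3, Il2ra and Icos have ratios from 3.33 to 4.45, while Cd8a, Cd8b1 and Themis lie near 1 and Txk at 0.720.

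Pirfenidone was compared with vehicle in TGFα mice to ask which lung transcripts the drug moved. No member passed the test: 0 of 30 were called, while 0.152% of all genes tested were called higher and 0.549% lower. limma-voom on the recovered reads also called 0 members. Unadjusted p values were under 0.05 for 15 of the 30 tested members and for 2862 of the 13849 genes. All 32 members had a higher mean with pirfenidone, by 1.05 to 3.61 times with a median of 1.69. The median difference of the tested members was 0.51, against 0.03 over all genes. Genes of other lists lay above 0 as well, with 14 of 14 B cell genes (median 0.53), 12 of 12 NK cell genes (median 0.47), 12 of 15 pan-leukocyte genes (median 0.35) and 6 of 6 lymphoid stroma genes (median 0.58), none of them called. In 19 of the 32 every pirfenidone library lay above every TGFα vehicle library, an order found in 15.3% of all genes tested, with 9.13% in the opposite order.

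The members with the smallest adjusted p values in this comparison came from several roles. Tcf7 was 1.56 times as high with pirfenidone as with vehicle (difference 0.60, SE 0.11, adjusted p = 0.0588, 95% interval 0.34 to 0.85). Ptprcap was 2.06 times as high (difference 0.93, SE 0.19, adjusted p = 0.0692) and Skap1 2.38 times as high (difference 0.83, SE 0.18, adjusted p = 0.0746). Il2rb was 1.81 times as high (difference 0.66, SE 0.14, adjusted p = 0.0747) and Cd247 1.95 times as high (difference 0.50, SE 0.11, adjusted p = 0.0802). In each of these 5 genes, picked for small p in this comparison, the 3 pirfenidone libraries lay above the 3 TGFα vehicle libraries. That order held for 15.3% of all genes tested, and here it adds no support beyond the p values. Ctla4 had the highest ratio of means, 3.61, with a wide interval (difference 0.75, SE 0.49, adjusted p = 0.413, 95% interval -0.36 to 1.87).

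Members with little difference were Cd2, whose pirfenidone mean was 1.09 times that of vehicle (difference 0.09, SE 0.25, adjusted p = 0.866, 95% interval -0.47 to 0.65), and Bcl11b at 1.05 times (difference 0.04, SE 0.12, adjusted p = 0.882, 95% interval -0.24 to 0.31). Cd2 was also the only member lowest of all 9 libraries in a pirfenidone library. Zap70, with 1.34 times, and Il7r, with 1.303 times, had overlapping groups. Ubash3a and Cd40lg had pirfenidone library 1 near control values and library 2 near TGFα vehicle values, on few reads.

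These counts depended on single libraries. Without pirfenidone library 3, 8 members were called higher (Cd3d, Cd247, Cd8b1, Cd27, Tcf7, Skap1, Il2rb and Ptprcap), with adjusted p from 0.0191 for Ptprcap to 0.0494 for Cd3d. In that fit 7.62% of all genes were called higher. Without control library 3, a fit in which 28 members and 13765 genes were tested, Tcf7, Il2rb and Ptprcap were called higher, 3 in all, with 0.603% of all genes. Pirfenidone library 3 also had the lowest summed RPKM of its group over the 15 pan-leukocyte genes, 556 against 698 and 729, and few muscle reads. Over the 32 T cell genes it summed to 128 RPKM, beside 127 in pirfenidone library 2 and 155 in pirfenidone library 1.

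Against control lungs, those of TGFα mice on pirfenidone still had lower T cell genes in part. Of the 30 tested members 5 were called lower and 0 higher, while 7.74% of all genes tested were called lower and 10.6% higher. Il2rb fell to 0.511 of control (difference -0.82, SE 0.14, adjusted p = 0.00706), Zap70 to 0.5398 (difference -0.68, SE 0.18, adjusted p = 0.03097) and Cd2 to 0.4997 (difference -0.90, SE 0.25, adjusted p = 0.0361). Cd27 fell to 0.622 of control (difference -0.56, SE 0.15, adjusted p = 0.0359) and Cd3e to 0.652 (difference -0.56, SE 0.15, adjusted p = 0.0363). All 32 means were lower than control, at 0.362 to 0.871 of it, and in 16 of the 32 every pirfenidone library lay below every control library. That order held for 14.8% of all genes tested and the opposite one for 22.5%. The median difference was -0.44, against 0.05 over all genes. Without control library 3 it was -0.32, against 0.06 over all genes, with 26 of the 28 tested members below 0 and 2 above. The ratio of 0.362 was that of Ctla4, whose control libraries held 0.80, 2.67 and 7.73 RPKM. TGFα vehicle and control libraries are shared between the comparisons, so these counts are not independent of each other.

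The call of Il2rb against control was kept whichever library was left out. Il2rb was the only member so: the count fell to 1 without control library 2 or pirfenidone library 2, and to 2 without control library 1, control library 3, TGFα vehicle library 3 or pirfenidone library 3. It was 3 without TGFα vehicle library 2. Of all genes 3.17% were called lower without control library 1, 2.81% without control library 2 and 3.24% without pirfenidone library 2. Without control library 3 or pirfenidone library 3 the shares were 9.59% and 9.08%. They were 6.54% and 6.01% without TGFα vehicle library 2 or 3. Highest adjusted p values on leaving 1 library out were 0.122 for Cd3e, 0.1103 for Cd2, 0.107 for Cd27 and 0.0979 for Zap70. Members nearest to control were Cd8a, at 0.871 of it (difference -0.15, SE 0.19, adjusted p = 0.616), Ptprcap at 0.867 (difference -0.16, SE 0.19, adjusted p = 0.587) and Cd3g at 0.8503 (difference -0.19, SE 0.23, adjusted p = 0.594). Intervals of these 3 differences included 0, from -0.57 to 0.28 for Cd8a, -0.59 to 0.27 for Ptprcap and -0.71 to 0.33 for Cd3g.

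**Figure D3:**
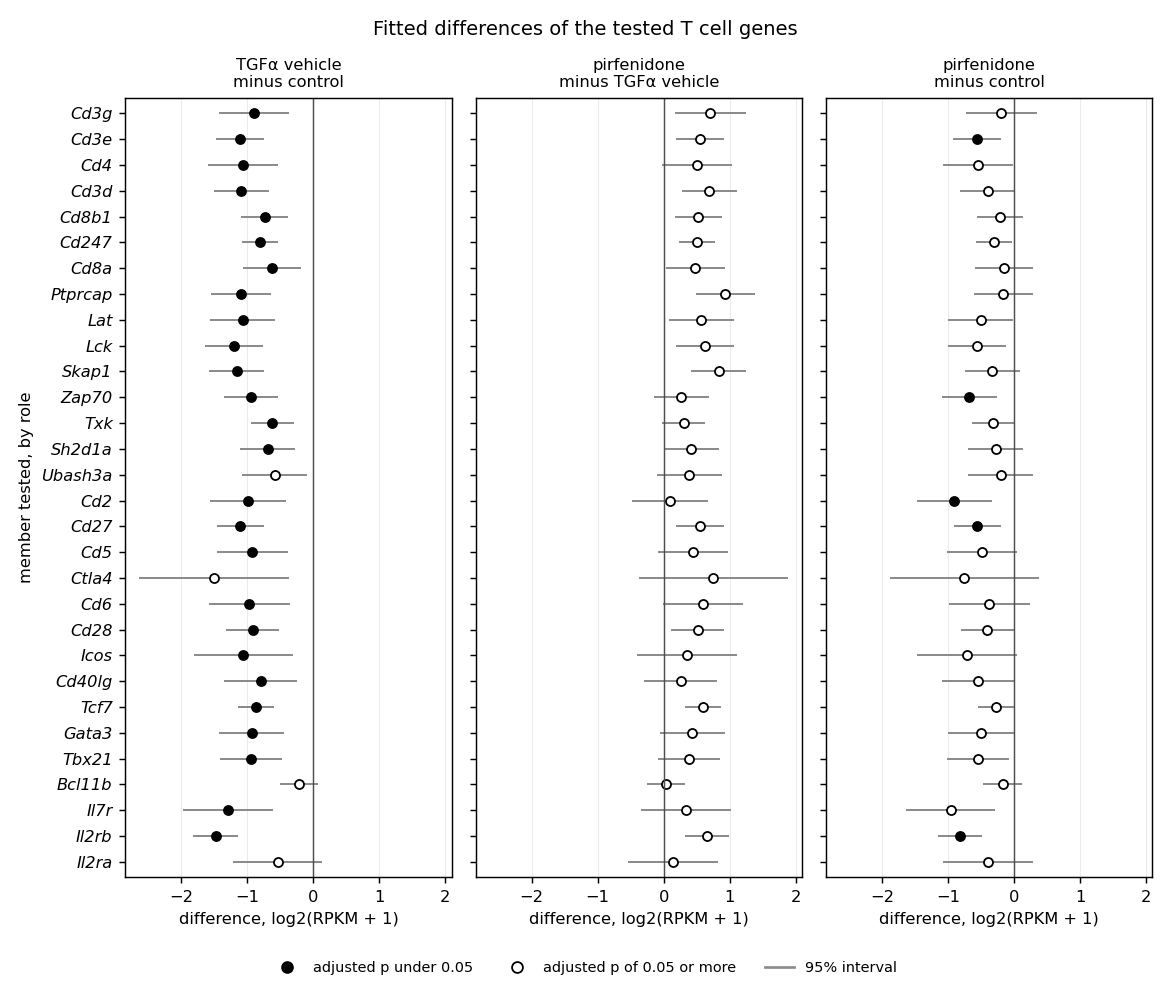
Differences on the log2(RPKM + 1) scale with 95% intervals for the 30 tested T cell genes in the 3 comparisons; filled points have an adjusted p under 0.05. In the left panel 26 genes are filled and lie below 0, in the middle panel 0 are filled although the points lie above 0, and in the right panel 5 are filled.

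Levels relative to the CD3 chains differed between members. Per library, a member's RPKM was divided by the mean RPKM of Cd3d, Cd3e and Cd3g, as a description without a test. For Lck this ratio was 1.02, 1.12 and 1.15 in the control libraries, 0.978, 0.802 and 1.09 on TGFα vehicle and 0.905, 0.884 and 1.03 with pirfenidone, so that the groups overlapped. The ratio of Il2rb was 0.947, 0.822 and 0.859 in control, 0.504, 0.583 and 0.607 on TGFα vehicle and 0.474, 0.594 and 0.759 with pirfenidone. Both TGFα groups lay below the controls in that ratio. Bcl11b lay in the opposite order, with ratios of 0.164, 0.147 and 0.1404 in control, 0.253, 0.278 and 0.253 on TGFα vehicle and 0.147, 0.158 and 0.183 with pirfenidone. The TGFα vehicle libraries lay above all others in the ratio for Bcl11b.

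The wider receptor pathway was lower in part. Of 40 further genes of T cell receptor signalling, all tested, 18 were called lower and 0 higher on TGFα vehicle against control, beside 11.2% and 12% of all genes, with a median difference of -0.43; Ptprc, Vav1 and Was also belong to the pan-leukocyte list. Arhgef1, a guanine nucleotide exchange factor of lymphocytes, measured 62.8, 61.6 and 62.1 RPKM in control, 43.1, 39.5 and 43.2 on TGFα vehicle and 47.6, 43.8 and 49.6 with pirfenidone (difference -0.56, SE 0.07, adjusted p = 0.00244). Ptpn22, a phosphatase that restrains Lck, measured 5.92, 5.07 and 7.56 RPKM in control, 2.67, 1.64 and 2.26 on TGFα vehicle and 4.52, 3.79 and 2.84 with pirfenidone (difference -1.17, SE 0.19, adjusted p = 0.00467). Against control 6 were called lower with pirfenidone, beside 7.74% of all genes. The count was 12 with TMM scaling, 11 with median-of-ratios scaling and 11 with limma-voom. The shares of all genes called with these alternatives are not given here. Between pirfenidone and vehicle 0 of the 40 were called, while 0.152% of all genes were called higher and 0.549% lower. With each of those 3 alternatives 1 of the 40 was called. The median difference there was 0.26, with 34 of the 40 above 0 and 6 below. Itpr1 and Cbl had the smallest adjusted p values of the list between pirfenidone and vehicle and were among the 6 below 0 (difference -0.48, SE 0.09, adjusted p = 0.0659 for Itpr1 and difference -0.60, SE 0.13, adjusted p = 0.0798 for Cbl).

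For the other T cell lists the shares to read against are again 11.2% of all genes called lower on TGFα vehicle and 12% higher. Of 14 tested naive and homing genes 8 were called lower on TGFα vehicle and 0 higher. The 8 included Itgal, the alpha chain of LFA-1 (difference -1.07, SE 0.16, adjusted p = 0.00359). S1pr1, which endothelial cells also express strongly, fell too (difference -1.54, SE 0.23, adjusted p = 0.00406). Checkpoint and activation genes were called lower in 4 of 12, led by the early activation marker Cd69 (difference -1.22, SE 0.22, adjusted p = 0.00725). Lag3 was not lower on TGFα vehicle (difference 0.08, SE 0.26, adjusted p = 0.8504) and was called higher with pirfenidone than in control (difference 0.89, SE 0.26, adjusted p = 0.0429). Of 18 further T cell transcription factors 5 were called lower and 1 higher. Ikzf3 fell (difference -1.12, SE 0.13, adjusted p = 0.00166) and Runx1, which many lung cells express, rose (difference 0.68, SE 0.09, adjusted p = 0.00263). The median difference of these factors was -0.09, with 8 above 0 and 10 below. Of 4 tested helper cytokine genes 2, Il16 and Ltb, were called lower. Ifng, named after its values were seen, did not exceed 0.881 RPKM in any library. Of 5 tested genes of gamma delta and innate T cells 2 were called lower. Of 4 tested thymocyte genes 2, Cd1d1 and Myb, were called lower. The thymocyte gene Ptcra, likewise chosen afterwards, reached at most 0.409 RPKM.

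Other lymphocytes were lower in the same libraries. Of 12 tested NK cell genes 12 were called lower on TGFα vehicle, with Nkg7 at 14.2, 11.3 and 12.4 RPKM in control, 5.74, 4.14 and 4.95 on TGFα vehicle and 8.18, 12.6 and 9.75 with pirfenidone (difference -1.20, SE 0.16, adjusted p = 0.00269). Of 14 B cell genes 11 were called lower. Counts in these lists are to be read beside the 11.2% of all genes called lower and 12% called higher. The pan-leukocyte list was called lower in 4 of 15 genes, which included Ptprc, the CD45 gene (difference -0.74, SE 0.14, adjusted p = 0.00796), and the myeloid list in 6 of 18, with 0 higher in both. The mean of the 32 T cell genes over that of the pan-leukocyte genes was 0.146, 0.14 and 0.108 in control libraries, 0.082, 0.07795 and 0.06904 on TGFα vehicle and 0.104, 0.08196 and 0.108 with pirfenidone. By this measure TGFα vehicle libraries lay below the controls without overlap, and pirfenidone library 2 lay at the level of TGFα vehicle library 1. With geometric means of RPKM + 1 pirfenidone library 2 had the lowest ratio of the 9 libraries, 0.1074, next to 0.1086 in TGFα vehicle library 3. The mean of the CD3 chains over Ptprc was 0.218, 0.208 and 0.225 in control, 0.173, 0.165 and 0.154 on TGFα vehicle and 0.267, 0.194 and 0.218 with pirfenidone. In this ratio the TGFα vehicle libraries were the 3 lowest.

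**Figure D4:**
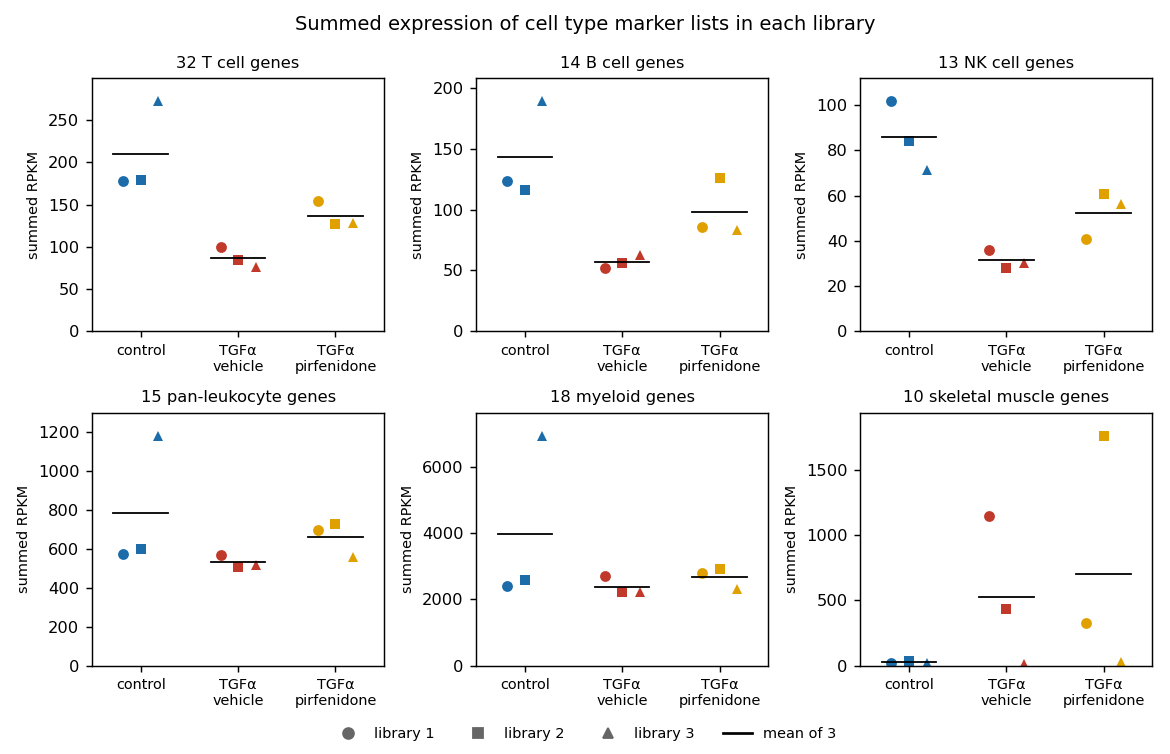
Summed RPKM of 6 marker lists in each library, with symbols for the library number and a line at the mean of 3; each axis starts at 0. T, B and NK cell sums are lowest in the TGFα vehicle libraries, the myeloid and pan-leukocyte sums are highest in control library 3, and muscle sums are high in libraries 1 and 2 of both TGFα groups.

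Over the 32 members TGFα vehicle libraries 1, 2 and 3 summed to 99.2, 84.4 and 76.2 RPKM, beside muscle sums of 1144, 429 and 9.08 RPKM. Pirfenidone libraries 1, 2 and 3 summed to 155, 127 and 128 RPKM over the members, beside 326, 1758 and 27.96 RPKM of muscle genes. The part of muscle RNA in the T cell values was not tested. TGFα vehicle library 3 was the lowest of the 9 libraries for 18 of the 32 members, library 2 for 10 and library 1 for 3. Control sums were 178, 179 and 272 RPKM. Of 7 tested genes of type 2 innate lymphoid cells 2 were called lower and 1 higher on TGFα vehicle, of 6 lymphoid stroma genes 2 lower and 0 higher, of 10 lung identity genes 3 lower and 1 higher, and of 9 tested muscle genes 0. Of all genes 11.2% were called lower and 12% higher on TGFα vehicle. Between pirfenidone and TGFα vehicle 0 genes of any of these lists were called, beside 0.152% of all genes higher and 0.549% lower. The part of cell composition in the T cell values was not tested.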

How the data were processed

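Total lung RNA was isolated with a column kit and sequenced by the standard Illumina protocol, per the labels' protocols. Per the submitters' processing notes, bcl2fastq, CASAVA 1.8, TopHat and DESeq were used, with mm10; their roles are not given. The deposited table holds RPKM made by the authors. Every value was a whole multiple of 1 read (tolerance 0.0001 reads), so reads were recovered, with totals given in the report; 3 reads correspond to 0.159 to 0.262 RPM. Libraries were grouped by their labels. limma 3.58.1 (R 4.3.3, trend) was fitted to log2(RPKM + 1) of all 9 libraries, for genes above 1 RPKM in at least 3 libraries, two-sided, with Benjamini-Hochberg adjustment over 13849 genes. Alternatives were other pseudocounts, filters and scalings, a replicate block, only the libraries compared, each library left out and, chosen after seeing the data, limma-voom on recovered reads. Members and lists were chosen with earlier results of these data known. All members were described; of the other lists, mainly genes with the smallest p were named. Some results are not reported here. Start windows come from RefSeq (GRCm38.p6) and exon overlaps from GENCODE M21. The counting intervals of Foxp3 cover counting error only. The 95% intervals of differences come from the limma fit and reflect the spread between libraries.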

Additional observations from a re-analysis of the deposited data

How the results depend on the processing

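Over 9 fits that each left out 1 library, the called members ranged from 13 to 26 for TGFα vehicle against control, from 0 to 8 for pirfenidone against TGFα vehicle and from 1 to 6 for pirfenidone against control. For the 40 other pathway genes these ranges were 9 to 20, 0 to 6 and 2 to 7. In these fits 4.92% to 13% of all genes were called lower on TGFα vehicle than in control. Between pirfenidone and TGFα vehicle 0% to 7.62% were called higher and 0.029% to 7.7% lower. With pirfenidone 2.81% to 9.59% were called lower than in control. Over the same fits the difference of Cd2 between pirfenidone and vehicle ranged from -0.0636 to 0.24 and that of Bcl11b from -0.0212 to 0.0760, and against control that of Cd3g ranged from -0.34 to 0.0448, that of Cd8a from -0.30 to 0.00698 and that of Ptprcap from -0.29 to 0.0602. With only the 6 libraries compared, 3 members and 3 other pathway genes were called for pirfenidone against control, in place of 5 and 6. TMM scaling called 12 other pathway genes there, median-of-ratios scaling 11 and limma-voom 11, and each called 1 between pirfenidone and vehicle. The cause of these changes was not tested. The shares of all genes called with these settings, and with the replicate block, are not given here. All other settings kept the member counts within 1.5 times (25 to 27 of them lower on TGFα vehicle). With the replicate block 25, 0 and 5 members were called (Cd40lg, adjusted p = 0.0504, was lost). Same-numbered libraries correlated at -0.136 to 0.458 in their deviations from group means, and 8 of 18 pairings were closest to their own number. The highest values joined TGFα vehicle and pirfenidone libraries 1 (0.407) and 3 (0.458). The labels do not say whether same-numbered libraries were handled together, and these values cannot decide it. edgeR and DESeq2 were not run. Low reads limit Ctla4, Foxp3, Cd40lg and Ubash3a, with as few as 5 reads in a library for Ctla4.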
